A study of Schizosaccharomyces pombe with 9 samples.

Results

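A set of 9 genes that encode heterochromatin and RNA interference factors was followed across 3 strains of the fission yeast Schizosaccharomyces pombe. The genes were taken by name: clr4, swi6, chp1, ago1, dcr1, rdp1, clr3, sir2 and epe1, which are 9 of the 6988 annotated features in the count table. All 9 had enough counts to be tested, as did 6227 features in total. Heterochromatin is the silent, compact chromatin of centromeres, telomeres and the silent mating type loci. In fission yeast, RNA interference machinery turns transcripts of the repeats there into small RNAs, and these guide a methyltransferase to lysine 9 of histone H3. Chromodomain proteins then bind the methylated histone and recruit deacetylases that keep transcription low, while anti-silencing factors limit how far the silent state spreads.

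The study measured polyadenylated RNA of cells in log phase (YES, a rich medium, at 30 °C), with 3 labelled biological replicates in each of 3 groups, all of the h- mating type. WT is strain Sp1. The second strain is labelled rsm1∆::natMX, a deletion of the gene for the nuclear basket subunit Rsm1 marked by nourseothricin resistance, and the third carries nup211-1435* with asp1-WT::kanMX, an allele of the basket subunit gene nup211 together with a kanMX-marked asp1 gene. That strain, nup211-1435* asp1-WT::kanMX, is called nup211-1435 in what follows. The series asked how these basket subunits act on RNA 3′-processing and transcription termination. Each genotype was represented by 1 strain, so effects of a marker, of the marked asp1 locus or of strain background cannot be told apart from those of the basket mutations. WT had no resistance marker in its label.

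Total counts lay between 20.98 M and 28.11 M per library, and the 9 factors had between 905 (sir2) and 4169 (dcr1) counts in a library. The gene rsm1 was present in all libraries, at 36.7 ± 0.398 CPM in WT and 31.8 ± 1.25 in the rsm1∆-labelled libraries (SD, n = 3; CPM is the count scaled to a common library total, given after TMM scaling). Annotated features on the other strand overlap 97.5% of its exon. Its coding part is 891 of 2575 nt of annotated exon, and the label does not give the stretch deleted. The counts thus do not settle that label, and these libraries are named by it throughout. The gene nup211 held 180 ± 10.5 CPM in WT, 249 ± 16.7 in the rsm1∆-labelled libraries and 267 ± 8.23 in nup211-1435. Such a count does not show whether the allele is present. The gene asp1, marked in nup211-1435, held 131 ± 2.28 CPM in WT, 149 ± 5.41 in the rsm1∆-labelled libraries and 199 ± 2.13 in nup211-1435. The part of the marker in this was not tested. The labelled h- type is M. The M mating type markers (6 genes, none with a group mean of 0) together held 132 to 155 CPM in WT, 131 to 141 in the rsm1∆-labelled libraries and 88.9 to 94.3 in nup211-1435. These sums join genes that moved in opposite directions: 2 rose and 3 fell in the rsm1∆-labelled libraries, and 2 rose and 4 fell in nup211-1435. The pheromone gene mfm2 fell from 45.07 ± 7.51 CPM to 17.8 ± 1.08 and 9.46 ± 0.364, while mam1 was 70.6 ± 4.1, 80.4 ± 3.38 and 48.2 ± 2.16. The P markers (4 genes, none with a group mean of 0) held 624 to 666, 666 to 687 and 549 to 555 CPM, of which sxa1 made up 605 ± 21.7 in WT. In the rsm1∆-labelled libraries 2 of them rose and none fell, and in nup211-1435 none rose and 1, sxa1, fell. The gene map4 held 21.8 ± 0.517, 40.4 ± 2.69 and 21.3 ± 0.826 CPM in the 3 groups, and map3 13.2 ± 1.24, 17.6 ± 0.988 and 13.4 ± 0.178. Whether cells of another type took part in the results below was not tested, and in bulk RNA fewer cells of a type and less RNA per cell cannot be told apart.

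Of the 9 factors, 7 rose in the rsm1∆-labelled libraries and 2 fell, and in nup211-1435 6 rose, 1 fell and 2 did not pass the test. The largest rises were those of chp1, clr4, dcr1 and rdp1, from 1.32-fold to 1.93-fold, and the fall that was called in both strains was that of swi6. The threshold for a call was an adjusted p below 0.05 in edgeR's quasi-likelihood test over all 6227 features. Changes were common in these strains: 70.7% of all features tested were called in the rsm1∆-labelled libraries (36.7% higher and 34.1% lower), and 64.9% in nup211-1435 (32.9% higher, with 32.0% lower). The median log2 fold change of the 9 factors was 0.25 and 0.22, beside 0.0144 and 0.00733 over all features. Both comparisons used the same 3 WT libraries, so their likeness is not independent evidence.

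**Figure D1:**
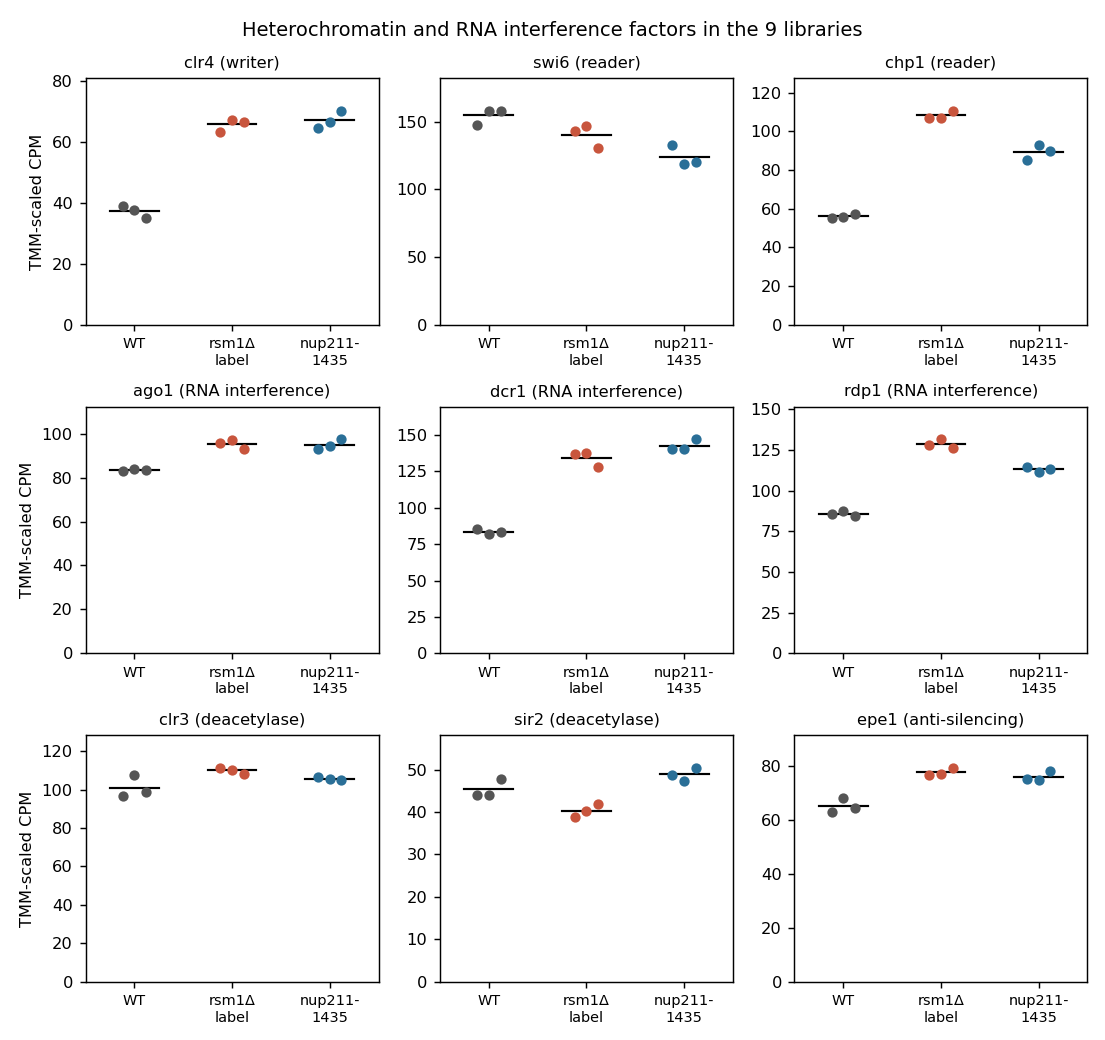
Level of each of the 9 factors in each library, as TMM-scaled CPM on axes that start at 0; each point is 1 library and the bar is the mean of 3. The clr4, chp1, dcr1 and rdp1 points of both mutant groups all lie above those of WT, and the swi6 points of both all lie below.

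The writer of the histone mark, clr4 (SPBC428.08c, chromosome II), encodes the histone H3 lysine 9 methyltransferase of fission yeast. Its WT libraries held 38.8, 37.6 and 35.0 CPM, the rsm1∆-labelled libraries 63.3, 67.2 and 66.5, and the nup211-1435 libraries 64.4, 66.4 and 70.2. All 6 mutant libraries stood above all 3 of WT, while the mutant groups overlapped each other. The log2 fold change was 0.82 (SE 0.05, adjusted p = 1.27e-09) in the rsm1∆-labelled libraries and 0.85 (SE 0.05, adjusted p = 1.05e-09) in nup211-1435, a rise of 1.77-fold and 1.81-fold. The difference between the mutants was 0.03 (95% interval -0.06 to 0.12, adjusted p = 0.602).

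Among the readers, which carry chromodomains that bind the methylated histone, chp1 and swi6 moved in opposite directions. The gene chp1 (SPAC18G6.02c, chromosome I) encodes the chromodomain subunit of RITS, the complex that brings small RNAs to chromatin. It held 55.4, 55.5 and 57.4 CPM in WT, 107, 107 and 111 in the rsm1∆-labelled libraries, and 85.4, 92.7 and 89.9 in nup211-1435. The 3 groups did not overlap, with WT lowest and the rsm1∆-labelled libraries highest. The rise was 0.95 (SE 0.04, adjusted p = 2.73e-11), or 1.93-fold, in the rsm1∆-labelled libraries, and 0.67 (SE 0.04, adjusted p = 1.11e-09), or 1.59-fold, in nup211-1435.

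The gene swi6 (SPAC664.01c, chromosome I) encodes the HP1 protein of fission yeast, the main structural protein of heterochromatin. Its WT libraries held 148, 158 and 158 CPM, the rsm1∆-labelled libraries 143, 147 and 131, and the nup211-1435 libraries 133, 119 and 120. Every mutant library stood below every WT library, with the highest library labelled rsm1∆ (147) next to the lowest of WT (148). The fall was -0.32 (SE 0.05, adjusted p = 9.42e-05) in nup211-1435. In the rsm1∆-labelled libraries it was -0.14 (SE 0.05, adjusted p = 0.0232), and this call was lost without WT replicate 2 (adjusted p = 0.0669), WT replicate 3 (0.0647) or rsm1∆ replicate 3 (0.0951). The authors' deposited table gives the same comparison an adjusted p of 0.0759, and with scaling by total counts the value was 0.00091 (adjusted p = 0.99).

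Of the 3 RNA interference genes, dcr1 and rdp1 rose more than ago1. Dicer, the product of dcr1 (SPCC188.13c, chromosome III), cuts double-stranded RNA into small RNAs. It held 85.3, 81.7 and 83.5 CPM in WT, 137, 138 and 128 in the rsm1∆-labelled libraries, and 141, 140.2 and 147 in nup211-1435. All mutant libraries stood above WT and the nup211-1435 libraries were also all above those labelled rsm1∆. The log2 fold changes were 0.69 (SE 0.04, adjusted p = 5.85e-10) and 0.77 (SE 0.04, adjusted p = 2e-10), or 1.61-fold and 1.71-fold.

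The RNA-directed RNA polymerase gene rdp1 (SPAC6F12.09, chromosome I), whose product makes the double strand that Dicer cuts, held 85.7, 87.3 and 84.7 CPM in WT. It held 128, 132 and 126 CPM in the rsm1∆-labelled libraries and 115, 112 and 113 in nup211-1435. The 3 groups did not overlap, in the same order as for chp1. The rises were 0.58 (SE 0.03, adjusted p = 5.51e-10) and 0.40 (SE 0.03, adjusted p = 4.57e-08), or 1.5-fold and 1.32-fold.

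Argonaute, which holds the small RNA and cuts its target, is encoded by ago1 (SPCC736.11, chromosome III). The WT libraries held 83.0, 83.8 and 83.4 CPM, a narrow spread, the rsm1∆-labelled libraries 95.9, 97.01 and 92.9, and the nup211-1435 libraries 93.3, 94.3 and 97.6. All mutant libraries were above WT and the mutant groups overlapped. Both rises were 0.19 (SE 0.03), with adjusted p-values of 0.000115 and 0.000154, or 1.14-fold each.

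The deacetylase genes had small values. The gene clr3 (SPBC800.03, chromosome II) encodes the deacetylase of the silencing complex SHREC, and held 96.4, 108 and 98.8 CPM in WT, 111, 110.3 and 108 in the rsm1∆-labelled libraries, and 107, 106 and 105.0 in nup211-1435. WT replicate 2 stood above all 3 nup211-1435 libraries, while the rsm1∆-labelled libraries were just above all of WT. The log2 fold change was 0.12 (SE 0.04, adjusted p = 0.0109) in the rsm1∆-labelled libraries, a call that was lost without WT replicate 1 (0.0709). In nup211-1435 it was 0.07 (95% interval -0.01 to 0.14, adjusted p = 0.147), which became a call without WT replicate 2 (0.12, adjusted p = 0.0108).

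The NAD-dependent deacetylase gene sir2 (SPBC16D10.07c, chromosome II) held 44.1, 44.1 and 47.9 CPM in WT, 38.9, 40.2 and 42.0 in the rsm1∆-labelled libraries, and 48.8, 47.3 and 50.5 in nup211-1435. It was lower in all libraries labelled rsm1∆ than in any of WT, while nup211-1435 overlapped WT. The value was -0.17 (SE 0.05, adjusted p = 0.00653) in the rsm1∆-labelled libraries. In nup211-1435 it was 0.11 (95% interval 0.01 to 0.20, adjusted p = 0.0658), which became a call without WT replicate 3 (0.15, adjusted p = 0.0215). With scaling by total counts sir2 was not called in the rsm1∆-labelled libraries (-0.028, adjusted p = 0.626) and was called in nup211-1435 (0.24, adjusted p = 0.000447), as was clr3 (0.20, adjusted p = 0.000532).

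The anti-silencing gene epe1 (SPCC622.16c, chromosome III) encodes a JmjC-domain protein that counters the spread of heterochromatin. The WT libraries held 63.1, 68.1 and 64.7 CPM, the rsm1∆-labelled libraries 76.7, 77.0 and 79.6, and the nup211-1435 libraries 75.3, 74.8 and 78.2. Both mutant groups lay above WT and overlapped each other. The rises were 0.25 (SE 0.04, adjusted p = 3.48e-05) and 0.22 (SE 0.04, adjusted p = 0.000143), or 1.19-fold and 1.16-fold.

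**Figure D2:**
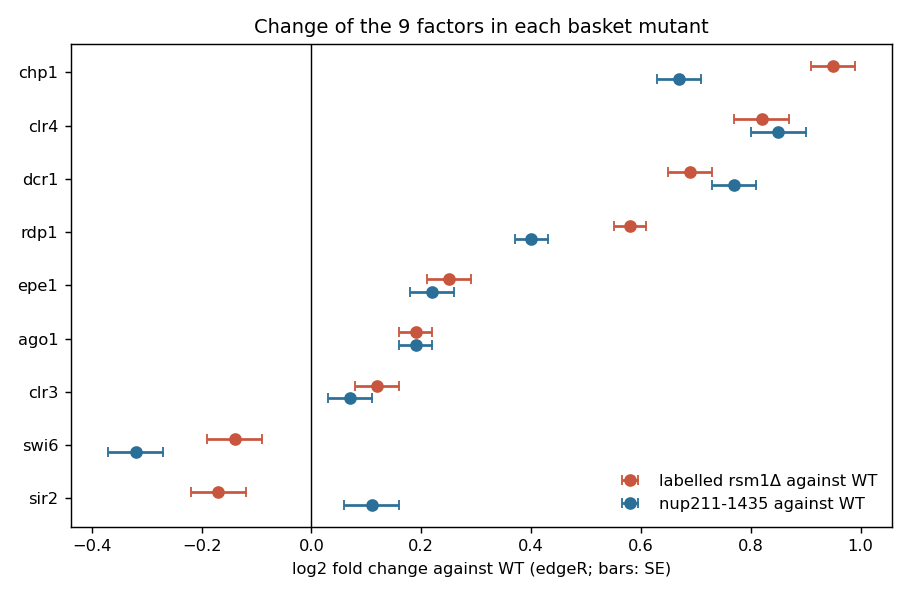
The log2 fold change of each factor against WT in the rsm1∆-labelled libraries and in nup211-1435, with bars of 1 SE from the fit over all 9 libraries. The factors run from chp1 at 0.95 to sir2 at -0.17 in the rsm1∆-labelled libraries, and sir2 is the factor whose 2 values lie on opposite sides of 0.

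Counted over libraries, all 9 factors had groups that did not overlap between the rsm1∆-labelled libraries and WT, 7 higher and 2 lower. In nup211-1435 this held for 7 factors (6 higher and 1 lower), and clr3 and sir2 overlapped WT. The same was true of 74.1% and 67.8% of all features tested. With 9 genes and a background this high, neither count is read as particular to these factors.

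Set directly against each other, the mutants differed for 4 of the 9 factors, beside 50.2% of all features (24.5% higher and 25.7% lower in nup211-1435). Relative to the rsm1∆-labelled libraries, nup211-1435 had less chp1 (-0.28, SE 0.04, adjusted p = 2.43e-05), rdp1 (-0.19, SE 0.03, adjusted p = 0.0002) and swi6 (-0.18, SE 0.05, adjusted p = 0.0115), and more sir2 (0.28, SE 0.05, adjusted p = 0.000284). The swi6 call was lost without rsm1∆ replicate 2 (adjusted p = 0.0573) or nup211-1435 replicate 2 (0.0559). The difference in dcr1 was 0.09 (95% interval 0.02 to 0.16, adjusted p = 0.0592), and it passed the threshold with DESeq2 size factors (0.0484) or with a fit of these 2 groups alone (0.0456). For the other factors the intervals were narrow around 0: -0.07 to 0.06 for ago1, -0.13 to 0.02 for clr3 and -0.11 to 0.04 for epe1. Groups of 5 factors did not overlap between the mutants (2 higher and 3 lower), beside 58.9% of all features.

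Levels were compared between the genes per kilobase of annotated exon, as CPM per kb. In WT the order was swi6 (91.4 ± 3.49), clr3 (41.1 ± 2.38), ago1 (31.8 ± 0.149), sir2 (22.8 ± 1.1), rdp1 (21.3 ± 0.326), epe1 (16.4 ± 0.634), chp1 (15.9 ± 0.321), dcr1 (14.9 ± 0.324) and clr4 (8.41 ± 0.439), each as mean ± SD of 3 libraries. Of these neighbours, only epe1 and chp1 overlapped in their libraries. The structural protein gene swi6 was thus the most abundant per kilobase of exon and the methyltransferase gene clr4 the least.

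Per kilobase of exon, the order shifted in the mutants while its ends stayed the same. In the rsm1∆-labelled libraries, rdp1 (31.9 ± 0.695 CPM per kb) and chp1 (30.6 ± 0.602) overlapped each other and both passed sir2 (20.3 ± 0.787), which overlapped epe1 (19.5 ± 0.393). In nup211-1435 dcr1 (25.5 ± 0.707), chp1 (25.3 ± 1.05) and sir2 (24.6 ± 0.816) overlapped as neighbours. The distance between swi6 and clr4 narrowed, to 82.8 ± 4.82 against 14.9 ± 0.472 CPM per kb in the rsm1∆-labelled libraries and to 73.3 ± 4.62 against 15.2 ± 0.665 in nup211-1435. The place of clr4 depends on the length used. Its coding part makes up 1473 of 4415 nt of annotated exon, and per kilobase of coding sequence it had 25.2 CPM in WT, above chp1 (19.5), dcr1 (20.2), epe1 (22.9) and rdp1 (23.5). On that measure clr4 had 44.6 in the rsm1∆-labelled libraries and 45.5 in nup211-1435. There it stood below swi6 (142 and 126) and clr3 (53.3 and 51.2) and above ago1 (38 in each).

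The factors with long transcripts had the higher fold changes. Annotated exon length ran from 1693 nt for swi6 and 1987 nt for sir2, through 2453 nt for clr3, 2621 nt for ago1, 3536 nt for chp1, 3994 nt for epe1, 4041 nt for rdp1 and 4415 nt for clr4, to 5609 nt for dcr1. Over the 9 factors, Spearman's rho between length and log2 fold change was 0.8 in the rsm1∆-labelled libraries and 0.917 in nup211-1435. Over 4995 protein-coding genes rho was 0.365 and 0.339. These are descriptions across genes, which share libraries and are not independent. Length here and below is that of annotated exon, and for clr4 the coding part is 1473 of 4415 nt. Neither rho nor the place among genes of like length was computed with coding length.

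Set beside genes of like length, clr4, chp1 and dcr1 still stood high. Protein-coding genes of 3000 to 4000 nt had a median log2 fold change of 0.20 (quartiles 0.02 and 0.41, 462 genes) in the rsm1∆-labelled libraries, and those of 4000 to 6000 nt 0.31 (quartiles 0.09 and 0.59, 249 genes). In nup211-1435 the medians were 0.16 (-0.01 and 0.33) and 0.30 (0.11 and 0.52). In both comparisons chp1, clr4 and dcr1 lay above the upper quartile of their class, and rdp1, epe1, ago1, clr3 and sir2 lay within the quartiles. The gene swi6 lay within them in the rsm1∆-labelled libraries and below the lower quartile in nup211-1435, where genes of 1000 to 2000 nt had quartiles of -0.21 and 0.16.

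When the trend of counts with exon length was removed in each library, an alternative chosen after seeing the data, 6 of the 9 factors were called in the rsm1∆-labelled libraries (4 higher and 2 lower) and 6 in nup211-1435 (5 higher and 1 lower). The rise of chp1 was then 0.72 and 0.48, that of clr4 0.54 and 0.57, that of dcr1 0.35 and 0.37, and that of rdp1 0.32 and 0.16, all called. The value of epe1 was -0.011 (adjusted p = 0.804) and -0.016 (adjusted p = 0.729), so its rise was no longer called in either strain. The rise of ago1 was called in nup211-1435 (0.11, adjusted p = 0.00781) and not in the rsm1∆-labelled libraries (0.069, adjusted p = 0.0646), where clr3 was not called either (0.019, adjusted p = 0.672). The falls of swi6 were -0.12 (adjusted p = 0.0441) and -0.29 (adjusted p = 0.000282).

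**Figure D3:**
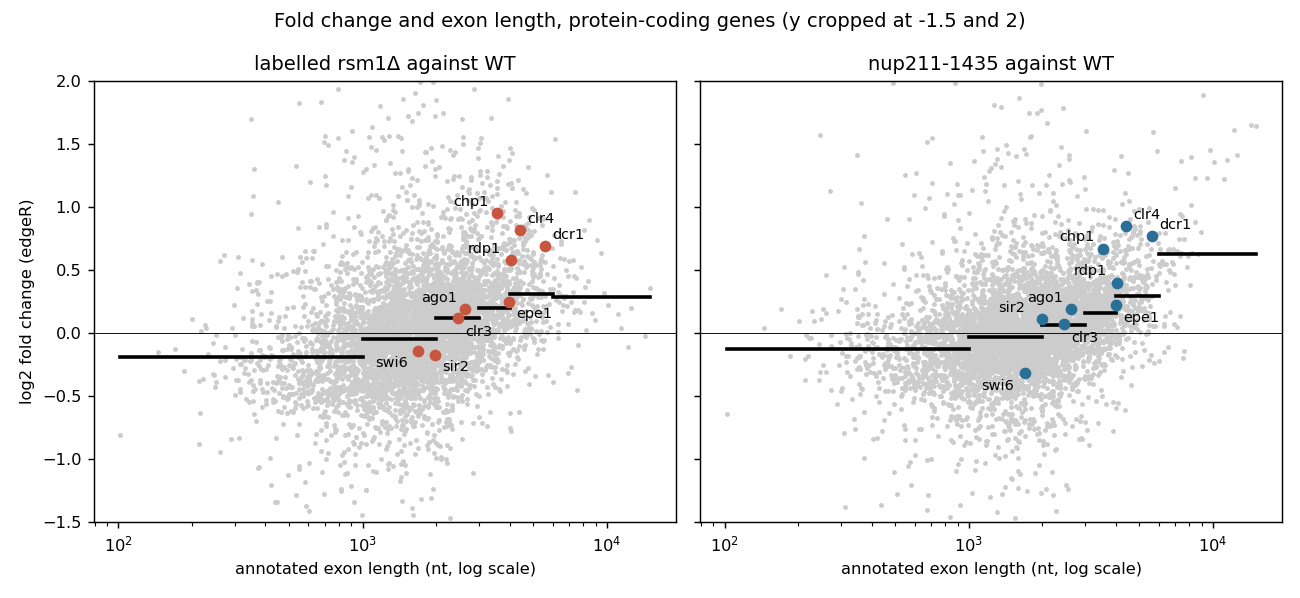
The log2 fold change against WT of protein-coding genes (grey points) by annotated exon length in nt on a log axis, for the rsm1∆-labelled libraries (left) and nup211-1435 (right). Coloured points are the 9 factors and black bars the medians of 6 length classes, which rise from -0.193 below 1000 nt to 0.313 at 4000 to 6000 nt on the left, and from -0.123 to 0.629 above 6000 nt on the right.

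Most of the 9 genes lie opposite other annotated features, and 2 of those neighbours moved against them in both mutants. The strand setting used in counting is not given in the sources used here, and although the library kit preserves strand, reads of a gene and of its partner on the other strand may not be fully separated. The gene meu6, which encodes a pleckstrin homology domain protein, lies wholly within the exon of clr4 and covers 51.3% of it. It fell from 17.6 ± 0.873 CPM in WT to 10.96 ± 0.789 in the rsm1∆-labelled libraries (-0.68, SE 0.08, adjusted p = 3.19e-06) and 11.9 ± 0.9 in nup211-1435 (-0.57, SE 0.08, adjusted p = 2.08e-05), while clr4 rose. The septin gene spn6 shares 96.9% of its exon with dcr1, over 32.8% of dcr1. It fell from 6.17 ± 1.03 CPM to 2.49 ± 0.0809 (-1.31, SE 0.16, adjusted p = 2.28e-06) and 3.53 ± 0.431 (-0.80, SE 0.15, adjusted p = 0.000187), while dcr1 rose. The part of these partners in the values of clr4 and dcr1 was not tested.

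The partners of clr3, epe1 and sir2 were called in neither or in 1 of the mutants. The noncoding RNA SPNCRNA.1331 covers the whole exon of clr3 with 24 to 42 counts per library, beside 2285 to 2975 for clr3, and had values of 0.15 (SE 0.24) and -0.03 (SE 0.25), neither called. SPNCRNA.67 covers 48.4% of epe1 and had 0.17 (SE 0.15, adjusted p = 0.348) in the rsm1∆-labelled libraries. In nup211-1435 it was -0.46 (SE 0.16, adjusted p = 0.0217), a call lost without WT replicate 1 (0.0593), WT replicate 2 (0.103) or nup211-1435 replicate 2 (0.094), and with scaling by total counts (0.0921). The zinc transporter gene zrt1 shares 114 nt with sir2, and WT replicate 2 held 446 CPM of it beside 180 in WT replicate 3 and a similar level in replicate 1. Its value was -0.75 (SE 0.36, adjusted p = 0.11) in the rsm1∆-labelled libraries and -0.19 without that library (adjusted p = 0.000856), and in nup211-1435 -0.74 (adjusted p = 0.121) and -0.17 (adjusted p = 0.00172). For swi6 there is no annotated feature on the other strand, and for chp1, ago1 and rdp1 none that was counted. Features that were not counted still overlap 16% of the exon of chp1, 82% of ago1 and 33% of rdp1 on that strand. With these included, the overlap is 86.7% for clr4, 63.5% for dcr1, 87.2% for sir2 and 72% for epe1. The part of uncounted features in the values of the factors was not tested.

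**Figure D4:**
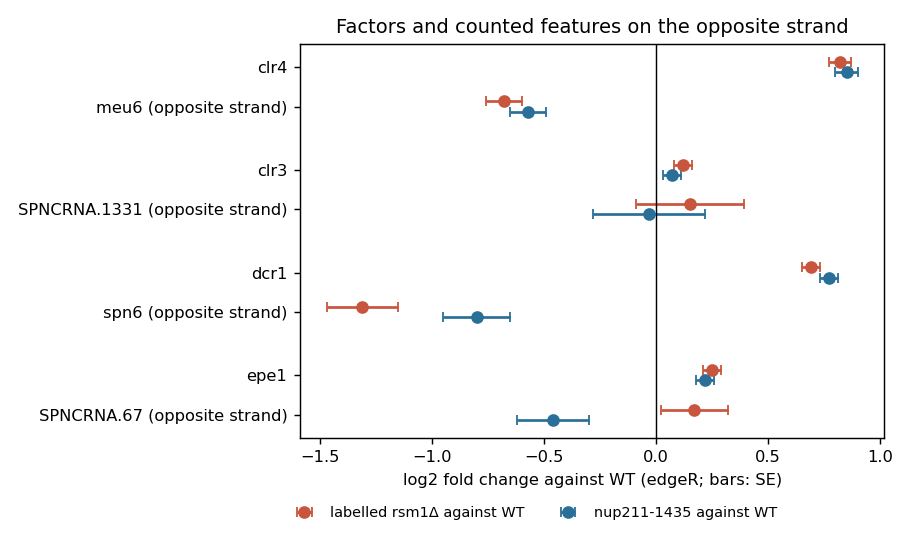
The log2 fold change against WT, with bars of 1 SE, of 4 factors and of the counted feature that overlaps each on the opposite strand. The clr4 and dcr1 points lie right of 0 and those of meu6 and spn6 left of it in both mutants, while SPNCRNA.1331 and SPNCRNA.67 have wider bars.

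Other genes of heterochromatin were taken from 13 lists of complexes and functions, of which 72 genes outside the 9 were tested. In the rsm1∆-labelled libraries 32 rose and 20 fell, which is 72.2% called, and in nup211-1435 32 rose and 13 fell, which is 62.5%. These shares are near those of all features, 70.7% and 64.9%. By direction they were less alike: 44.4% of the 72 genes were called higher in each strain, beside 36.7% and 32.9% of all features. Lower calls were 20 and 13 of 72, beside 34.1% and 32.0% of all features. The median log2 fold change of the 72 genes was 0.05 and 0.07. With the 9 included, 39 rose and 22 fell in the rsm1∆-labelled libraries and 38 rose and 14 fell in nup211-1435. The split depends on the scaling: it was 53 and 7, and 59 and 5, with total counts, and 27 and 29, and 27 and 20, with the trend over exon length removed. Among the genes named below, removing that trend ended the calls of cul4, chp2, tas3, slm9, hip1 and man1 in the rsm1∆-labelled libraries and of pst1, slm9 and pot1 in nup211-1435. It added calls in the rsm1∆-labelled libraries for arb1 (0.12, adjusted p = 0.0429), pot1 (-0.19, adjusted p = 0.00268) and mdn1 (-0.47, adjusted p = 0.000289). Total counts ended those of chp2 and cdt2 in the former and of pcf3, hip4 and crb3 in the latter. They added arb1 (0.22, adjusted p = 0.00107) and pot1 (0.12, adjusted p = 0.0308) in the rsm1∆-labelled libraries. In nup211-1435 they added taz1 (0.20, adjusted p = 0.00035), bqt4 (0.18, adjusted p = 0.00206) and tas3 (0.15, adjusted p = 0.0151). Between the mutants, 20 of the 72 were higher and 12 lower in nup211-1435, which is 44.4% called beside 50.2% of all features.

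**Figure D5:**
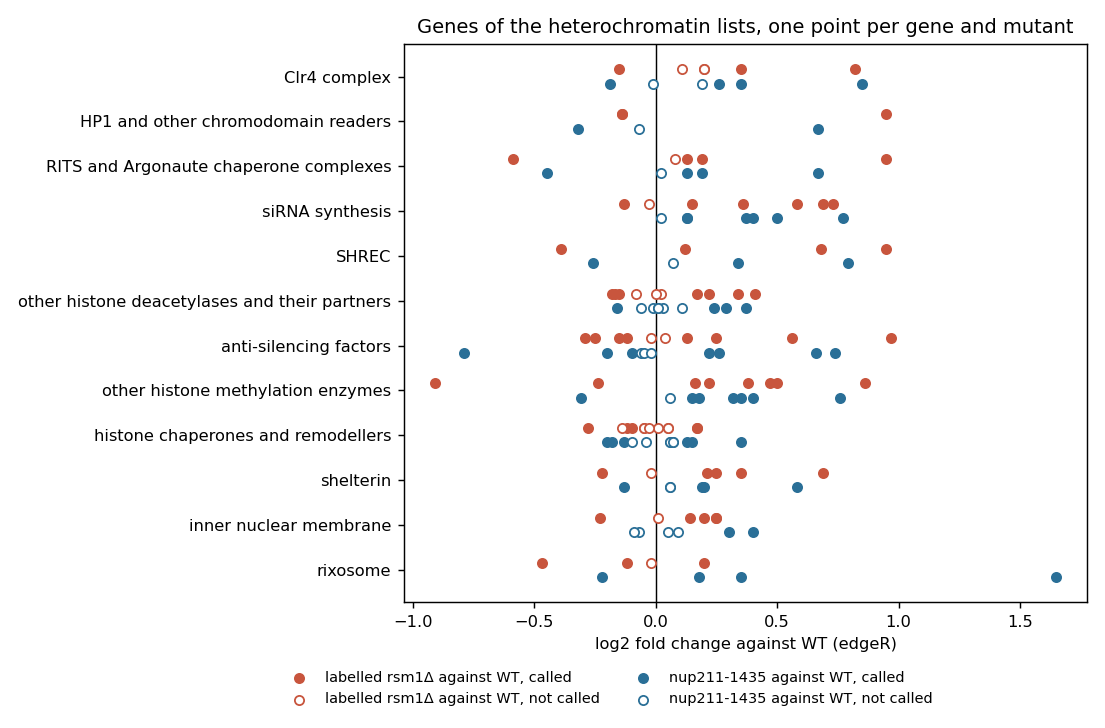
The log2 fold change against WT of each tested gene in 12 lists of heterochromatin genes, the 9 factors included; filled points were called and open points were not. The siRNA synthesis genes of nup211-1435 all lie right of 0, and mdn1 at 1.65 is the point farthest right.

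Counts per list, here and below, include any of the 9 factors in that list. These are swi6 and chp1 among the readers, ago1 and chp1 in RITS, and dcr1 and rdp1 in siRNA synthesis. Also counted are clr3 in SHREC, sir2 among the other deacetylases and epe1 in the anti-silencing list. Of all features, 36.7% were called higher and 34.1% lower in the rsm1∆-labelled libraries, and 32.9% and 32.0% in nup211-1435. Of the 6 tested genes of the Clr4 methyltransferase complex, 3 rose and 1 fell in each mutant, among the rises clr4 itself and the cullin gene cul4 (0.20, SE 0.05, and 0.35, SE 0.05). Among 3 chromodomain readers, chp2, which encodes the HP1 protein of the deacetylase complex SHREC, was -0.14 (SE 0.05, adjusted p = 0.0203) in the rsm1∆-labelled libraries. That call was lost without WT replicate 1 or without rsm1∆ replicate 1 or 2. In nup211-1435 chp2 was -0.07 (SE 0.05, adjusted p = 0.209).

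Among the 5 genes of RITS and of the Argonaute chaperone complex, 3 rose and 1 fell in each mutant. The gene arb2, for an Argonaute-binding protein, fell in both (-0.59, SE 0.10, adjusted p = 6.57e-05, and -0.45, SE 0.10, adjusted p = 0.000818). The RITS subunit gene tas3 was 0.13 (SE 0.05, adjusted p = 0.0277) and 0.02 (SE 0.05, adjusted p = 0.791), and arb1 0.08 (SE 0.05, adjusted p = 0.176) and 0.13 (SE 0.05, adjusted p = 0.0307). The tas3 call was lost without WT replicate 1 or 3 or rsm1∆ replicate 1 or 2, with DESeq2 (adjusted p = 0.0845) and with a fit of these 2 groups alone (0.0557). That of arb1 was lost without WT replicate 1 or nup211-1435 replicate 2 and with DESeq2 (0.0814).

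Of the 7 genes of siRNA synthesis, 5 rose and 1 fell in the rsm1∆-labelled libraries, and 6 rose and none fell in nup211-1435, where dri1 was at 0.02 (adjusted p = 0.76). The helicase gene hrr1, a partner of Rdp1, rose from 60.9 ± 0.681 CPM to 101 ± 4.01 (0.73, SE 0.04) and 86.1 ± 3.66 (0.50, SE 0.04). The gene ers1 rose by 0.36 (SE 0.05) and 0.37 (SE 0.05).

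SHREC, which joins the Clr3 deacetylase to a chromatin remodeller, had 3 rises and 1 fall in the rsm1∆-labelled libraries, and 2 rises and 1 fall in nup211-1435. The remodeller gene mit1 rose from 33.3 ± 1.06 CPM to 64.4 ± 1.03 (0.95, SE 0.05) and 57.7 ± 3.88 (0.79, SE 0.05), and clr1 by 0.68 (SE 0.04) and 0.34 (SE 0.04), larger values than those of clr3. Of 10 other deacetylases and partners, 4 rose and 3 fell, and 3 rose and 1 fell in nup211-1435. Among them pst1 rose by 0.41 and 0.37 and cph2 by 0.34 and 0.29 (SE 0.03 each).

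The list of 10 genes for anti-silencing factors and for proteins that act on Epe1 was divided. It had 4 rises and 4 falls in the rsm1∆-labelled libraries, and 4 rises and 3 falls in nup211-1435. The bromodomain gene bdf2 rose from 147 ± 5.13 CPM to 288 ± 11.9 (0.97, SE 0.06) and 247 ± 23.3 (0.74, SE 0.06), and prf1, for a protein associated with RNA polymerase II, by 0.56 and 0.66 (SE 0.04 each). The gene cdt2, whose product is the adaptor of a ubiquitin ligase that acts on Epe1, fell from 57.4 ± 2.46 CPM to 48.2 ± 1.19 (-0.25, SE 0.06, adjusted p = 0.0011) and 33.1 ± 3.06 (-0.79, SE 0.06, adjusted p = 1.69e-08).

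Of 8 other histone methylation enzymes, 6 rose and 2 fell in the rsm1∆-labelled libraries, and 6 rose and 1 fell in nup211-1435. The demethylase genes lid2 (0.86, SE 0.04, and 0.76, SE 0.04) and lsd2 (0.50 and 0.40, SE 0.03 each) rose. The demethylase gene jmj4 fell from 47.2 ± 2.88 CPM to 25.1 ± 0.129 (-0.91, SE 0.06) and 38.1 ± 2.17 (-0.31, SE 0.05). Annotated features overlap its whole exon on the other strand. This is not particular to jmj4: such overlap ran from 0% of exon for prf1 and cdt2, through 58% for hrr1 and 86.7% for mit1, to 100% for arb1.

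Of 12 histone chaperones and remodellers, 2 rose and 3 fell in the rsm1∆-labelled libraries, and in nup211-1435 3 rose and 3 fell. Here pcf3 fell (-0.28, SE 0.04, and -0.18, SE 0.03), slm9 rose (0.17 and 0.15, SE 0.04 each) and hip1 rose (0.17 and 0.35, SE 0.03 each). The chaperone gene hip4 was -0.14 (SE 0.06, adjusted p = 0.0623) and -0.20 (SE 0.06, adjusted p = 0.0148), the latter lost without WT replicate 3 or nup211-1435 replicate 1. The former became a call with DESeq2 size factors (0.0475), with a fit of these 2 groups alone (0.0443), and without WT replicate 2 (0.024), rsm1∆ replicate 2 (0.0208) or nup211-1435 replicate 1 (0.0438).

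Of the 6 shelterin genes, which protect telomeres, 4 rose and 1 fell, and 3 rose and 1 fell in nup211-1435. The telomere protein gene rap1 rose by 0.69 and 0.58 (SE 0.07 each), taz1 was 0.35 (SE 0.04) and 0.06 (SE 0.04, adjusted p = 0.175), and pot1 was -0.02 (SE 0.05, adjusted p = 0.701) and 0.20 (SE 0.05, adjusted p = 0.00163). In the rsm1∆-labelled libraries pot1 was thus called higher with total counts and lower with the length trend removed, as given above. The mutants differed in taz1 (-0.29, SE 0.04, adjusted p = 1.87e-05) and in pot1 (0.22, SE 0.05, adjusted p = 0.00124). Among 6 inner nuclear membrane genes, 4 rose and 1 fell, and 2 rose and none fell in nup211-1435. There man1 rose by 0.20 (SE 0.05) and 0.40 (SE 0.04), bqt3 by 0.25 and 0.30 (SE 0.03 each), and bqt4 was 0.25 (SE 0.05) and 0.05 (SE 0.05, adjusted p = 0.355).

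The rixosome is a ribosome assembly complex that also acts at heterochromatin. The list used here held 4 genes for it (crb3, grc3, ipi1 and mdn1) and is not taken as the whole complex. Against WT, 1 of these 4 rose and 2 fell in the rsm1∆-labelled libraries, and 3 rose and 1 fell in nup211-1435. All 4 listed genes were called higher in nup211-1435 than in the rsm1∆-labelled libraries, beside 24.5% of all features, and mdn1 differed most. This gene encodes midasin, a very large ATPase with 14352 nt of annotated exon, and held 313 ± 24.6 CPM in WT, 308 ± 19.1 in the rsm1∆-labelled libraries and 984 ± 45.2 in nup211-1435. The values were -0.02 (SE 0.06, adjusted p = 0.763) and 1.65 (SE 0.06, adjusted p = 1.43e-09), and the mutants differed by 1.67 (SE 0.06, adjusted p = 6.98e-09). Of 62 protein-coding genes of 6000 nt or more, 79% were called higher in nup211-1435 than in the rsm1∆-labelled libraries (median 0.346). For genes of 1000 to 2000 nt and of 3000 to 4000 nt, where the other listed genes lie, the shares were 28.3% and 21%. The part of length in the mdn1 difference was not tested. The gene crb3 fell in both strains (-0.47, SE 0.04, and -0.22, SE 0.04), and ipi1 rose (0.20 and 0.35, SE 0.05 each). For these 2 genes the mutants differed by 0.25 (SE 0.04, adjusted p = 6.16e-05) and 0.16 (SE 0.05, adjusted p = 0.0125).

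Genes that lie inside heterochromatin and that these factors keep silent gave few counts. The subtelomeric helicase gene tlh2 had 14, 3 and 21 counts in the WT libraries, 0, 7 and 3 in the rsm1∆-labelled libraries, and 25, 8 and 23 in nup211-1435. The libraries labelled rsm1∆ overlapped WT, and the nup211-1435 libraries, all above those labelled rsm1∆, overlapped WT too. The values against WT were -1.86 (SE 0.87, adjusted p = 0.0741) and 0.47 (SE 0.59, adjusted p = 0.499). The former passed the threshold with DESeq2 (-1.89, adjusted p = 0.0272), with the length trend removed (-2.20, adjusted p = 0.0427), without WT replicate 2 (-2.32, adjusted p = 0.00955) or without rsm1∆ replicate 2 (-2.93, adjusted p = 0.0469). The mutants differed by 2.34 (SE 0.80, adjusted p = 0.0301), but this call was lost without rsm1∆ replicate 1 (0.0891), rsm1∆ replicate 3 (0.0693), nup211-1435 replicate 1 (0.0916) or nup211-1435 replicate 3 (0.0855). Its relative tlh1 had at most 4 counts in a library and was not tested. The silent cassette genes mat3-Mc and mat3-Mi had 0 counts in all 9 libraries, which allows up to 3 counts, or 0.106 to 0.139 CPM, in each. These genes have near-identical copies elsewhere, so reads could be lost or split between copies, and counts this low limit what can be said of silencing itself.

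The genes most alike in pattern to the factors with the largest rise and the largest fall were found among 4638 other protein-coding genes of at least 10 CPM on average, by Pearson's r of log2(CPM + 1) over the 9 libraries. For chp1 these were the ion channel gene trp1322 (r = 0.998), the kinesin gene cut7 (0.996) and the gamma-glutamyltranspeptidase gene ggt1 (0.996). Like chp1, trp1322 was lowest in WT (13.8 ± 0.591 CPM), highest in the rsm1∆-labelled libraries (50.1 ± 1.83) and between them in nup211-1435 (33.9 ± 1.79). For swi6 they were hpz1 (0.972), for a zinc finger protein, the ubiquitin ligase gene brl2 (0.954), and ubp8 (0.945), for a ubiquitin protease of the SAGA complex. The 9 libraries form 3 groups and share their scaling, so these values describe the likeness of group levels.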

How the data were processed

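Polyadenylated RNA of 9 libraries was analysed from the raw read counts per annotated feature that the authors deposited, which are whole numbers with no normalization. The tools named in the submitters' processing notes are DESeq2, HTSeq 0.10.0, SAMtools and HISAT2 2.1.0, on build ASM294v2. The annotation and strand setting were not given in these sources. The authors also deposited log2 fold changes with p-values and adjusted p-values, whose columns are those of DESeq2 per the file headers. These were used only where the authors' table is named: it calls 8 of the 9 factors in the rsm1∆-labelled libraries and 7 in nup211-1435.

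The count model was fitted with edgeR 4.0.16 (R 4.3.3) after a filter by filterByExpr, with 10 as the minimum count and 15 as the minimum total, and TMM scaling. A robust quasi-likelihood model without covariates was fitted to all 9 libraries, and groups were compared by the two-sided quasi-likelihood F test, with Benjamini-Hochberg adjustment over 6227 features. SE is the absolute log2 fold change divided by the square root of F. The steps were tested on simulated counts. Replicates of a group differed by more than sampling noise, with a chi-square per degree of freedom of 2.8 to 11.9, and the biological coefficient of variation was 3.95%. Floors of 3 counts cover counting error only.

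Names, exon lengths and overlaps came from assembly ASM294v3, which matched 6836 features by identifier and 12 by synonym. Since this build is not that of the files, coordinates and sequences are not used here, and the promoter motif search that had been planned was not run. The 9 factors and the lists were chosen with earlier results of these data known. Named genes are the 9, up to 2 called genes of the largest absolute change per list and mutant, each tested gene inside heterochromatin, and the 3 most alike in pattern to the factors with the largest change and the largest fall; 1 of these genes is not reported here. Alternatives covered the scaling, the filter, DESeq2 1.42.0, fits of 2 groups, the replicate number, each library left out and, added after seeing the data, exon length.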

Additional observations from a re-analysis of the deposited data

How the results depend on the processing

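Of 432 values of the 9 factors under the alternatives, 404 kept their direction and side of the threshold, 9 lost the call, 7 gained it and 12 changed sign. Of 1486 values of other named genes the numbers were 1406, 38, 24 and 18, and no count of called genes moved by more than 1.5 times. With a library left out, 8 to 9, 7 to 8 and 3 to 4 factors were called in the 3 comparisons (the rsm1∆-labelled libraries against WT, nup211-1435 against WT, and nup211-1435 against the former). The replicate numbers did not pair the libraries, since the deviations of same-numbered libraries correlated at -0.0801 to 0.0819. With a replicate block 9, 8 and 4 factors were called, sir2 in nup211-1435 being gained (0.11, adjusted p = 0.0403), and 4393, 4057 and 3133 features. Total counts in place of TMM raised the median of all features by 0.143 and 0.135 against WT and the share of higher calls from 51.9% to 69.2% and from 50.7% to 71.1%. Values that changed sign were near 0 for most genes, and the cause was not tested. With total counts these were, against WT in the rsm1∆-labelled libraries, swi6 (0.00091), chp2 (0.0015), hip4 (0.0013), pot1 (0.12), mdn1 (0.12), brl2 (0.097) and ubp8 (0.030), and in nup211-1435 chp2 (0.062) and SPNCRNA.1331 (0.10). With the exon length trend removed they were epe1 (-0.011 and -0.016), hip1 (-0.0056) and tas3 in nup211-1435 (-0.012), and mdn1 in the rsm1∆-labelled libraries became a fall (-0.47, adjusted p = 0.000289). With each library left out in turn, values of both signs were found for pot1 (-0.052 to 0.032), mdn1 (-0.077 to 0.035) and SPNCRNA.1331 (-0.00069 to 0.39) in the rsm1∆-labelled libraries. The same held in nup211-1435 for tas3 (-0.0087 to 0.041), bqt4 (-0.0027 to 0.095) and SPNCRNA.1331 (-0.18 to 0.22), and between the mutants for clr4 (-0.0039 to 0.060) and ago1 (-0.023 to 0.011). Between the mutants ago1 was also 0.0022 with DESeq2 size factors, 0.0019 with DESeq2, 0.0016 with these groups alone and 0.039 with the length trend removed. Counts of tlh2 were at most 25 in a library, which limits its precision.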
